A study of Drosophila melanogaster with 40 samples.

Results

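The genes described here are 10 members of the Hsp90, Hsp70 and Hsp60 chaperone systems of Drosophila, followed over 2 time courses of RNA-Seq in S2 cells. They were found by matching the RefSeq accessions of each locus to fly gene names, and all 10 were present among the 15863 loci of the 25°C course and the 15864 loci of the 28°C course. S2 cells are an established line of embryonic Drosophila cells. Sampling at 3 h intervals gave 20 libraries at 25°C and 20 at 28°C, the first at CT24 and the last at CT81 (CT is circadian time), with 1 library and no replicate at each time point. Both sets of cells were untreated apart from temperature cycles that synchronised them, and were then held at a constant temperature. The 25°C libraries were made from polyA RNA of cells whose times were counted from the last medium change, and the 28°C libraries from rRNA-depleted total RNA of cells with a shorter entrainment. The 28°C reads were subsampled by the authors. Temperature, RNA selection, entrainment, depth and any difference between the cells used therefore cannot be told apart between the courses. The FPKM values of the courses were scaled separately, so levels at 25°C and 28°C are set side by side without a test.

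Chaperones bind unfolded or partly folded proteins and release them in cycles driven by ATP. In the cytosol, Hsp70 proteins receive clients from J-domain proteins, are recharged by nucleotide exchange factors, and can hand clients to Hsp90 through the adaptor Hop. Mitochondria hold their own set: an Hsp70 that pulls in and folds imported proteins, the barrel-shaped chaperonin Hsp60, and the Hsp90 relative Trap1. Some of these genes are transcribed at all times (the heat shock cognates, Hsc), while others are induced by heat through the heat shock factor Hsf, which binds heat shock elements in their promoters.

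FPKM (a read count divided by transcript length and by library size) summed to between 978685 and 1162420 per library at 25°C and to between 497153 and 1217367 at 28°C. From the value of 1 read at loci with few reads, depth came to roughly 12400000 to 33100000 reads at 25°C and 237000 to 646000 reads at 28°C. About 52.3% and 52.6% of the low values used lay within 0.1 of a whole read in the median library, so these depths are approximate. In both courses the lowest estimate lies below the lowest depth that the authors state. Read counts given below may therefore be too low. A locus counted as expressed when it had at least 0.9 FPKM in every library of its course, which held for 6933 loci at 25°C and 2035 at 28°C. The 10 loci of highest FPKM held 11.2% to 14.0% of the sum at 25°C, and 26.5% to 52.9% at 28°C, where CT48 was the highest. Of 6 hemocyte markers, srp, crq and Pxn were expressed at both temperatures, while Sr-CI, NimC1 and Hml did not pass 0.112 FPKM in any library at 25°C; Hml had 1.69 to 20.3 FPKM at 28°C and Sr-CI up to 24.3 FPKM. Among markers of other cells, repo, Mhc and vas stayed at or below 0.205 FPKM at 25°C, and elav and ppl had means of 6.65 and 31.7 FPKM. The part of these differences in the results below was not tested. In such bulk RNA, fewer cells of a kind and less RNA per cell cannot be told apart.

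All 10 chaperone genes were expressed at 25°C, and 9 of 10 at 28°C. The exception was Hsp68, which had 0.745 FPKM (about 0.968 reads) at CT33 and more in the other 19 libraries. At 25°C the most abundant member was Hsc70-4, with 1951 ± 187 FPKM (mean ± SD over 20 time points), higher than 98.5% of expressed loci. Hsp83 followed with 817 ± 198 FPKM, and its highest library lay below the lowest of Hsc70-4. These were the main cytosolic Hsp70 and Hsp90.

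Below these came Hsp60A with 250 ± 47.6 FPKM, Hop with 226 ± 42.6, Hsc70Cb with 186 ± 46.9 and Hsc70-5 with 166 ± 23.3. Hsp60A exceeded Hop in 13 of 20 libraries and Hsc70Cb exceeded Hsc70-5 in 13 of 20, so these neighbours were not separated beyond their spread. The others were DnaJ-1 (77.9 ± 13.0 FPKM), Trap1 (53.3 ± 7.28), Hsf (36.7 ± 10.7) and Hsp68 (15.6 ± 6.24), and Hsf was above Hsp68 in all 20 libraries. At 28°C the first 3 places were held by Hsc70-4 (987 ± 286 FPKM), Hsp83 (420 ± 128) and Hsp60A (149 ± 49.3), each above the next in 20 of 20 libraries. Further down the order was loose: DnaJ-1 exceeded Hop in 11 of 20 libraries, and Hsp68, with the higher mean, exceeded Trap1 in 8 of 20.

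**Figure D1:**
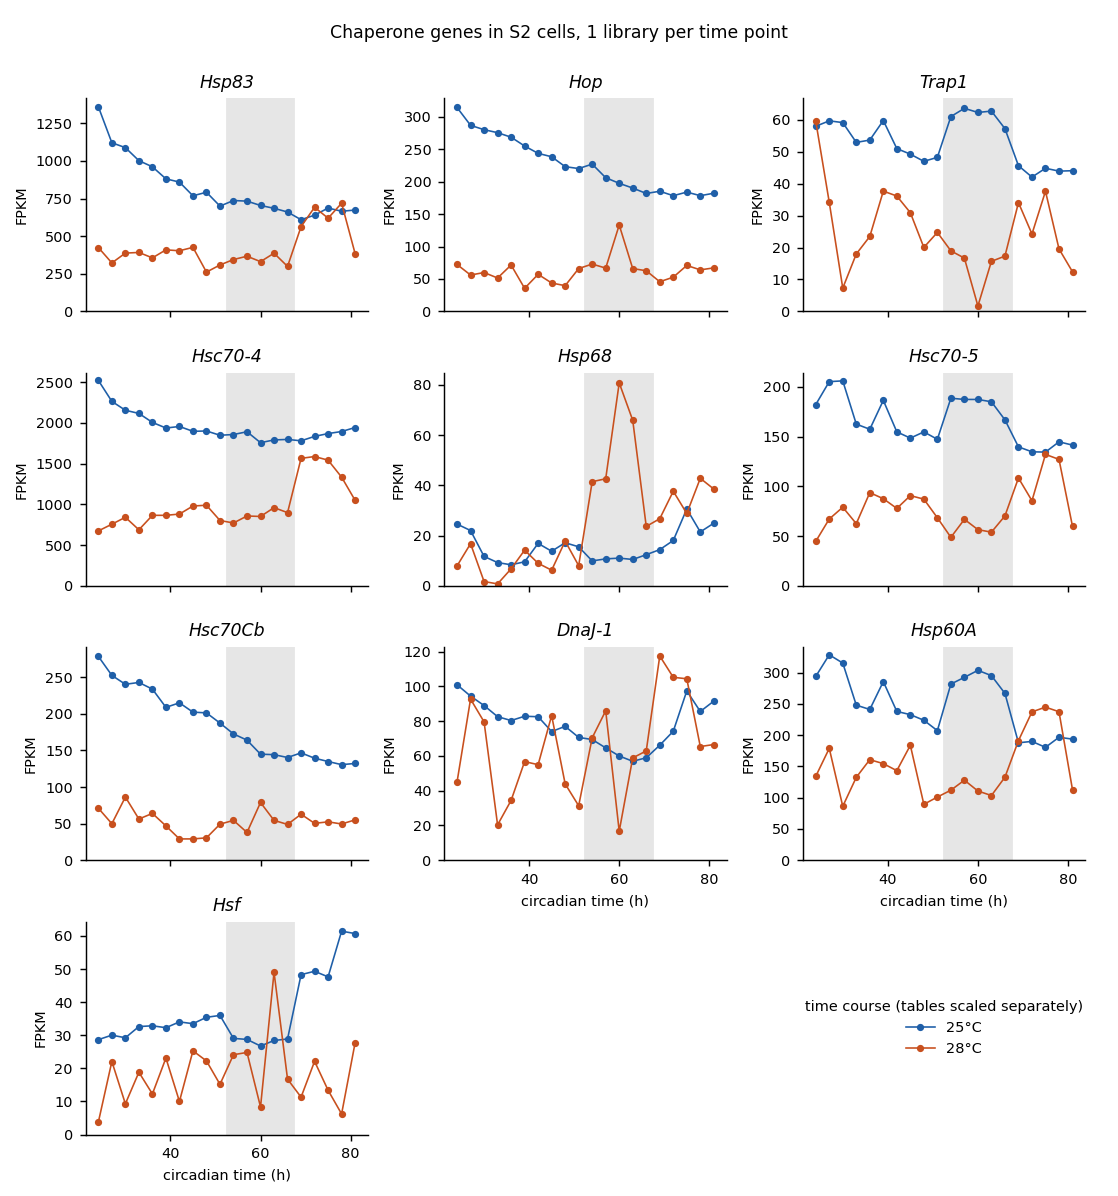
FPKM (vertical axes, linear from 0) of the 10 chaperone genes against circadian time in h, with 1 point per library for the 25°C course in blue and the 28°C course in orange, and CT54 to CT66 shaded grey. At 25°C Hsp83, Hop and Hsc70Cb descend through the course while Trap1, Hsc70-5 and Hsp60A are raised in the shaded interval; at 28°C Hsp83 and Hsc70-4 are highest between CT69 and CT78.

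The first question was whether a transcript changed steadily over the course. A slope of log2(FPKM + 1) on time was fitted by limma, a linear model that shares information on the spread among all loci, and p-values were adjusted over all expressed loci. At 25°C, 7 members fell and 1 rose. Among all 6933 loci 38.3% fell and 32.7% rose, so most transcripts of these cells had a slope.

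Hsp83 is the only cytosolic Hsp90 of the fly, and keeps kinases and receptors in a state from which they can be activated. Its locus lies on chromosome 3L at 3192969 to 3197631 (dm3), and the span of CG14966 (mean 34.3 FPKM at 25°C) overlaps it. Over the 20 libraries at 25°C Hsp83 had a lowest value of 609 FPKM at CT69, a median of 735 and a highest of 1361 at CT24. In the first 5 libraries (CT24 to CT36) it had 1361, 1121, 1089, 1002 and 961 FPKM, and in the last 5 (CT69 to CT81) it had 609, 640, 687, 666 and 674. The groups did not overlap, and the slope was -0.39 ± 0.04 log2 per 24 h (SE, adjusted p = 1.95e-08), or 0.764 times per day. Most of the fall came early: the second 5 libraries, at 700 to 881 FPKM, already lay below the first. Separation of the first from the last 5 libraries was common among the members at 25°C, where only Hsp68 and DnaJ-1 overlapped. The share of all expressed loci with groups apart was not counted, for this gene or any gene below, at either temperature. Separation of groups is thus given as a description of each gene.

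Hop, the adaptor with tetratricopeptide repeats that links Hsp70 to Hsp90, is listed under its current name Stip1 (chromosome 2L, 295122 to 297449). Its level descended from 314 FPKM at CT24 to 178 at CT72, with a median of 222. The slope was -0.35 ± 0.02 log2 per 24 h (adjusted p = 1.34e-12). First and last libraries were again apart, at 269 to 314 and 178 to 185 FPKM.

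In the Hsp70 system, Hsc70-4 (chromosome 3R, 11068409 to 11072336) is the constitutive cytosolic Hsp70, which also strips clathrin from vesicles. It ranged from 1757 FPKM at CT60 through a median of 1895 to 2522 at CT24, the narrowest relative spread of the 10 members (9.59% of the mean). Its slope was -0.13 ± 0.03 log2 per 24 h (adjusted p = 0.000238). The call was lost over the last 16 time points (slope -0.04, adjusted p = 0.178) and with the 4 groups of 5 libraries as a term (adjusted p = 0.174). Only the first 5 libraries, at 2006 FPKM or more, stood clear of the rest, all of which lay at or below 1956.

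Hsc70Cb, an Hsp110 that serves Hsp70 as a nucleotide exchange factor, had the steepest slope of the 10 (chromosome 3L, 14030119 to 14036786, current name Hsp110). It had 279 FPKM at CT24, a median of 180 and 131 FPKM at CT78. The slope was -0.48 ± 0.02 log2 per 24 h (adjusted p = 1.45e-13), or 0.719 times per day. The libraries of CT24 to CT36, CT39 to CT51 and CT54 to CT66 did not overlap, at 234 to 279, 187 to 215 and 140 to 173 FPKM.

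The 3 mitochondrial members also had negative slopes at 25°C, of -0.24 ± 0.06 log2 per 24 h for Hsp60A (adjusted p = 0.00207), -0.16 ± 0.05 for Hsc70-5 (adjusted p = 0.00546) and -0.14 ± 0.05 for Trap1 (adjusted p = 0.0210). A straight line described them poorly, as the next comparison shows. Without the last 4 time points the slopes of Trap1, Hsc70-5 and Hsp60A were -0.02, -0.09 and -0.13 and were no longer past the threshold (adjusted p = 0.852, 0.269 and 0.232). For Trap1 the call was also lost without CT78 or CT81 (highest adjusted p = 0.0562).

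Hsf, the transcription factor that drives heat shock genes, was the member that rose at 25°C (chromosome 2R, 14017808 to 14022139). Its slope was 0.33 ± 0.08 log2 per 24 h (adjusted p = 0.000894). The rise lay in the last 5 libraries, with 48.3, 49.3, 47.6, 61.5 and 60.7 FPKM against 26.7 to 36.0 FPKM in the 15 before; over the first 16 time points the slope was 0.07 (adjusted p = 0.497). DnaJ-1 and Hsp68 had no slope past the threshold, at -0.11 ± 0.07 (adjusted p = 0.148) and 0.20 ± 0.14 log2 per 24 h (adjusted p = 0.216). Each was high at both ends of the course, and the result depended on which end was kept. Over the first 16 time points DnaJ-1 fell by 0.39 log2 per 24 h (adjusted p = 6.29e-08), and with each library scaled to the same sum its slope was -0.18 (adjusted p = 0.0301). Over the last 16 time points Hsp68 rose by 0.54 (adjusted p = 0.00692), and without CT24 by 0.34 (adjusted p = 0.0385). DnaJ-1 also passed without CT75 or CT81 (lowest adjusted p = 0.0352).

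**Figure D2:**
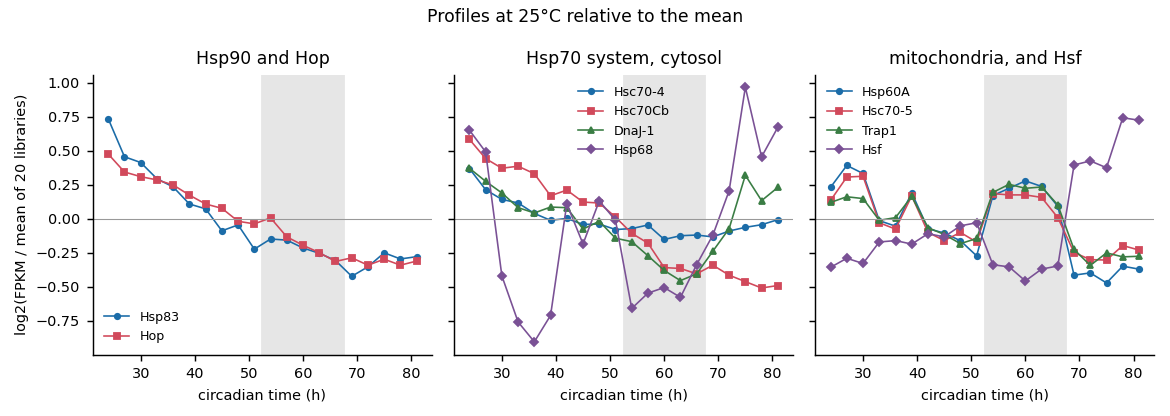
Log2 of FPKM relative to the mean of the 20 libraries at 25°C (vertical axis) against circadian time in h, 1 point per library, for Hsp90 and its adaptor, for the cytosolic Hsp70 system, and for the mitochondrial members with Hsf. In the grey interval from CT54 to CT66 the 3 mitochondrial lines lie above their mean and Hsf below it, and after CT69 they exchange places.

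The second question was whether the 5 libraries from CT54 to CT66 differed from the 5 before and the 5 after. The interval was chosen with such steps already known in these data, so the p-values and counts describe the steps and are no independent test of where they lie. At 25°C, 3 members were higher in this interval and 3 were lower. Of all loci, 7.33% were higher and 4.56% lower. The 3 higher members were the 3 that work in mitochondria.

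Hsp60A forms the mitochondrial chaperonin (chromosome X, 11002515 to 11006341). Between CT54 and CT66 it had 282, 293, 304, 295 and 267 FPKM at 25°C. Over CT39 to CT51 it had 286, 238, 233, 224 and 207 FPKM, and over CT69 to CT81 it had 188, 190, 181, 197 and 194. The 5 libraries of the interval lay above all 5 that followed and above 4 of the 5 that preceded, the exception being CT39, the library of lowest estimated depth at 25°C. The difference was 0.44 ± 0.09 log2 (adjusted p = 0.00543), or 1.36-fold.

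Hsc70-5, the mitochondrial Hsp70 (chromosome 2R, 10140103 to 10143697), had 189, 187, 187, 185 and 167 FPKM in the interval. Its values ran from 147 to 186 FPKM in the 5 libraries before and from 134 to 145 in the 5 after. The difference was 0.30 ± 0.06 log2 (adjusted p = 0.00728). CT39 was again the highest library before the interval.

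Trap1, the mitochondrial Hsp90 relative (chromosome 2R, 2521152 to 2523767), had 61.1, 63.6, 62.3, 62.8 and 57.3 FPKM in the interval, against 47.0 to 59.8 before and 42.1 to 45.7 after. The difference was 0.37 ± 0.07 log2 (adjusted p = 0.00246). For all 3 mitochondrial members the call held when each of the 15 libraries was left out in turn, and without CT39 the differences were 0.49 for Hsp60A, 0.34 for Hsc70-5 and 0.40 for Trap1. Before the interval these genes were high too: at CT27 and CT30 Hsp60A had 329 and 316 FPKM and Hsc70-5 had 205 and 206. From CT36 to CT39 Hsp60A rose from 241 to 286 FPKM, Hsc70-5 from 157 to 186 and Trap1 from 53.7 to 59.8. All 3 fell again at CT42, so the interval was not their only rise.

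The 3 lower members were Hsf, DnaJ-1 and Hsp68. Hsf had 29.1, 28.7, 26.7, 28.4 and 28.9 FPKM in the interval, 32.3 to 36.0 before and 47.6 to 61.5 after, with no overlap on either side. Its difference was -0.57 ± 0.15 log2 (adjusted p = 0.0207), and without CT60 or CT63 it missed the threshold (highest adjusted p = 0.0609). It was the only one of the 10 members whose interval did not overlap the 10 flanking libraries together. The share of all expressed loci without such overlap was not counted.

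DnaJ-1, a J-domain protein of the Hsp40 class that delivers clients to Hsp70 (chromosome 3L, 5743129 to 5745289), had 69.4, 64.6, 59.9, 56.9 and 58.9 FPKM in the interval. It had 70.6 to 82.8 FPKM before and 66.1 to 97.4 after, and the difference was -0.36 ± 0.08 log2 (adjusted p = 0.00951). Hsp68, a heat-inducible Hsp70 (chromosome 3R, 19880113 to 19883032), had 9.90, 10.7, 11.0, 10.5 and 12.4 FPKM in the interval, 9.56 to 17.1 before and 14.4 to 30.6 after. The difference was -0.63 ± 0.19 log2 (adjusted p = 0.0384), and it lost the threshold in 9 of the 15 fits with 1 library left out (adjusted p up to 0.0923). The span of CG6000 and lncRNA:CR44097 (mean 33.0 FPKM) overlaps the Hsp68 locus, and whether the counting used strand is not stated, so reads of overlapping genes may not have been told apart.

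Hsp83, Hop, Hsc70-4 and Hsc70Cb did not pass the threshold in this comparison, with differences of -0.04 ± 0.08, -0.05 ± 0.09, -0.05 ± 0.03 and -0.12 ± 0.13 log2. All 4 were among the members that fell over the course. Their adjusted p-values were 0.800, 0.779, 0.294 and 0.591. The comparison has no term for time, so a straight slope cancels from the difference but widens its error. For genes with a slope, a missed threshold is thus no evidence that the interval did not differ. Against all 15 other libraries with a line over time, Hsc70Cb was lower in the interval by 0.13 log2 (adjusted p = 0.00118).

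Both borders of the interval were then compared apart, in fits of the 4 consecutive groups of 5 libraries at 25°C that were added after the steps had been seen and that use the same libraries as the comparison above. On entering CT54 to CT66 from CT39 to CT51, Trap1, Hsp60A and Hsc70-5 rose by 0.27, 0.28 and 0.21 log2 (SE 0.05, 0.08 and 0.07; adjusted p = 0.00126, 0.0143 and 0.0349), while Hsc70Cb, DnaJ-1, Hsf and Hop fell by 0.41, 0.32, 0.26 and 0.24 (adjusted p = 7.78e-05, 0.0118, 0.00543 and 0.00329). That is 3 members up and 4 down, where 15.2% of all loci rose and 13.5% fell. For Hsc70-5 the call was lost in 8 of 10 fits with 1 library left out (adjusted p up to 0.0776).

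On leaving the interval for CT69 to CT81, Hsf rose by 0.88 ± 0.07 log2 (adjusted p = 1.48e-07), Hsp68 by 0.90 ± 0.24 (adjusted p = 0.00481) and DnaJ-1 by 0.41 ± 0.09 (adjusted p = 0.00100). By mean FPKM Hsf stood 1.89-fold higher and Hsp68 2.01-fold. Hsp60A fell by 0.60 ± 0.08, Trap1 by 0.47 ± 0.05 and Hsc70-5 by 0.39 ± 0.07 (adjusted p = 1.41e-05, 2.61e-06 and 0.000223). Hop and Hsc70Cb also fell, by 0.14 ± 0.05 and 0.16 ± 0.06 (adjusted p = 0.0407 and 0.0291), calls that were lost in 7 and 5 of 10 fits with 1 library left out (adjusted p up to 0.134 and 0.0967). The 3 members up and 5 down stand beside 22.5% of all loci up and 28.4% down.

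Some members changed within 1 step at a border and others over several libraries. From CT51 to CT54 Hsp60A changed by 0.44 log2, Hsc70-5 by 0.35 and Trap1 by 0.33, a larger step than in at least 91.0% of expressed loci, and Hsp68 changed by -0.60. From CT66 to CT69 Hsf changed by 0.72, more than 98.7% of loci, and Hsp60A by -0.50. DnaJ-1 changed by -0.025 at the first border and by 0.16 at the second, and Hsp68 by 0.20 at the second. From CT72 to CT75 DnaJ-1 changed by 0.39, its largest step, and Hsp68 by 0.73. Hsp68 had larger steps away from both borders, of -0.86 from CT27 to CT30 and 0.76 from CT39 to CT42. The median absolute step over all loci was 0.108 log2 from CT51 to CT54, the highest of the intervals at 25°C, and 0.0992 from CT66 to CT69, which ranked 3. Since there is 1 library per time point, a step between neighbours has no replicate.

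At 28°C few members passed a test. Hsc70-4 was the only one with a slope, 0.38 ± 0.10 log2 per 24 h (adjusted p = 0.0205), upwards where it had been downwards at 25°C. Of all 2035 loci, 5.8% rose and 2.41% fell. Its values ran from 674 FPKM at CT24 through a median of 873 to 1587 at CT72, and the 5 libraries of CT69 to CT81, with 1565, 1587, 1542, 1334 and 1049 FPKM, all lay above the 15 before, which reached at most 989. The call was lost without CT75 (adjusted p = 0.0555), over the first or the last 16 time points alone, with a filter on the mean (adjusted p = 0.244), and when each library was scaled to the same sum (slope 0.13, adjusted p = 0.558), a scaling that moved the median slope of all loci from 0.03 to -0.21 log2 per 24 h.

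Hsp83 shared this late elevation at 28°C. It had 563, 692, 620, 719 and 384 FPKM from CT69 to CT81, against 299 to 387 from CT54 to CT66 and 261 to 426 in the 10 libraries before. The first 4 of these 5 libraries were above all earlier ones, and the last, CT81, was not. The test of the last against the preceding 5 libraries gave 0.76 ± 0.21 log2 (adjusted p = 0.0783), for Hsc70-4 0.69 ± 0.18 (adjusted p = 0.0595), for Hsp60A 0.75 ± 0.26 (adjusted p = 0.164) and for Hsc70-5 0.74 ± 0.24 (adjusted p = 0.137). No member passed the threshold, where 0.688% of all loci rose and 0.344% fell; 320 of the 2035 loci had an unadjusted p under 0.05. Without CT81, these 4 members passed it, with 0.91 for Hsp83, 0.80 for Hsc70-4, 0.95 for Hsp60A and 0.92 for Hsc70-5 (adjusted p = 0.0114, 0.0114, 0.0333 and 0.0259). In that fit 81 of the 2035 loci passed, against 21 with CT81 included. No other library gave these 4 calls when left out. CT81 was not a shallow library, at about 550000 reads with 30.0% of its FPKM in the 10 highest loci. CT78, which stayed in that fit, had about 394000 reads and 42.8%.

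Hsp60A at 28°C had 191, 237, 245 and 238 FPKM from CT69 to CT78, then 113 at CT81, above its range of 86.2 to 184 FPKM in the first 15 libraries until the last. Hsc70-5 had 108, 85.5, 132 and 127 FPKM at the same 4 times, then 59.8 at CT81, against 44.6 to 93.7 before, so that CT72 overlapped the earlier libraries. In the CT54 to CT66 comparison 0% of the 2035 loci passed the threshold by limma in either direction, and none of the 9 members tested, while 328 loci had an unadjusted p under 0.05. The estimates of the mitochondrial members were negative, at -0.45 ± 0.25 log2 for Hsp60A, -0.61 ± 0.20 for Hsc70-5 and -1.14 ± 0.41 for Trap1, where at 25°C they were positive. The difference between temperatures was not tested.

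**Figure D3:**
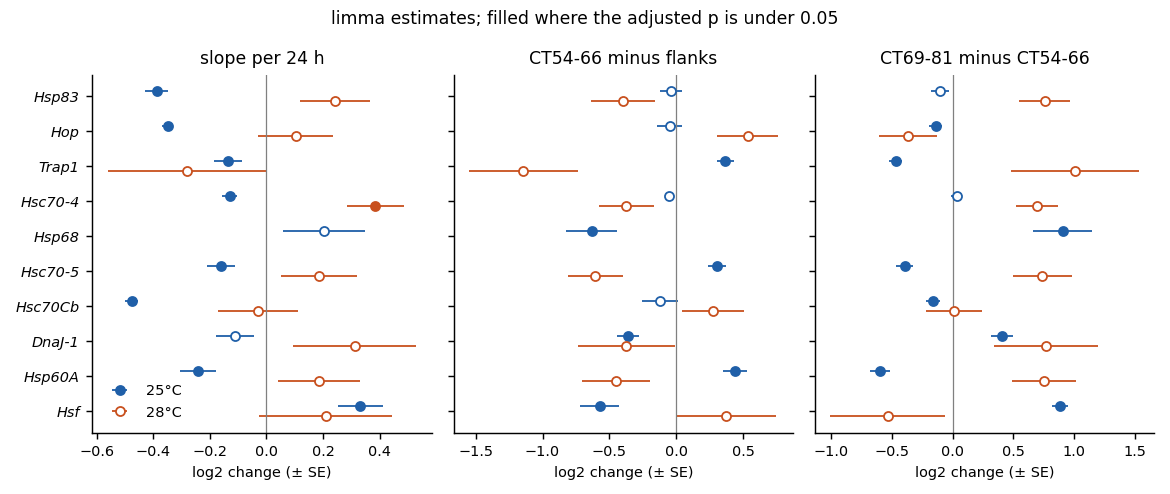
Log2 changes with their SE (horizontal axes) of each chaperone gene at 25°C in blue and at 28°C in orange: the slope per 24 h, CT54 to CT66 against the libraries before and after, and CT69 to CT81 against CT54 to CT66. Filled points have an adjusted p under 0.05; 8, 6 and 8 members are filled at 25°C against 1, 0 and 0 at 28°C, and Hsp68 was not tested at 28°C.

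Hsp68 had the widest relative spread of the 10 at 28°C (83.7% of the mean). It stayed between 0.745 and 17.8 FPKM in the 10 libraries to CT51. It then had 41.5, 42.6, 80.8, 65.9 and 23.6 FPKM from CT54 to CT66 and 26.7 to 42.8 FPKM from CT69 to CT81, so that every later library exceeded every earlier one. At 25°C the same gene was low from CT54 to CT66. When the filter was set to a mean of at least 0.9 FPKM, which brings Hsp68 into the test, its slope was 1.46 ± 0.32 log2 per 24 h with an unadjusted p of 0.00018 and an adjusted p of 0.102 over 7363 loci, and the CT54 to CT66 difference was 1.26 ± 0.48 (adjusted p = 0.517). The values rest on about 1 to 68 reads per library.

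The remaining members at 28°C passed no limma test. Trap1 ranged from 1.70 FPKM at CT60 through 21.8 to 59.6 at CT24, on about 1 to 46.2 reads, and its 5 libraries of CT54 to CT66 (1.70 to 19.0 FPKM) all lay below the 5 before (20.0 to 37.7). Hop had 35.6 to 133 FPKM with a median of 63.4, and Hsc70Cb 29.0 to 86.3 with a median of 51.3. DnaJ-1 had 16.6 to 117 FPKM with a median of 64.1, and Hsf 3.75 to 49.0 with a median of 17.8. Hop and Hsp68 were highest, and Trap1 and DnaJ-1 lowest, in the same library, CT60, which had about 257000 reads.

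The third question, which the sampling was designed for, was a 24-h rhythm. Profiles were detrended with a line and compared with cosines of 21, 24 and 27 h by JTK-Cycle, a rank test whose adjusted P covers the 24 cosines tried for one locus. At 25°C, 2 of the 10 members had an adjusted P under 0.05, where 5.93% of all loci did. At 28°C it was 1 of 9, against 4.37%.

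At 25°C these were Hsp68 (adjusted P = 0.00469), whose best cosine had a period of 27 h and a peak 25.5 h after CT24, and Trap1 (adjusted P = 0.00862), with 27 h and a peak 9 h after CT24. Both best periods were the longest of the range tried. A 24-h cosine fitted to Hsp68 had an amplitude of 34.2% of its mean, and that of Trap1 9.31%. At 28°C it was Trap1 (adjusted P = 0.00862), again with 27 h but with a peak 21 h after CT24. The 2 peaks of Trap1 thus lay 12 h apart, and the amplitude was 43.5% at 28°C on the few reads given above.

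These calls depended on the time points used. Hsp68 at 25°C was lost without CT24 (adjusted P = 0.0757), and Trap1 at 25°C without CT45 or CT48 (adjusted P up to 0.0584) or without detrending (0.0565). At 28°C Trap1 was kept in all 20 fits with 1 time point left out (adjusted P up to 0.0339) and lost without detrending (0.114). With Benjamini-Hochberg adjustment over all loci the lowest value among the members was 0.597. The other mitochondrial members were close in phase at 25°C without passing the threshold, Hsc70-5 with a peak 7.5 h after CT24 (adjusted P = 0.0719) and Hsp60A with 9 h (adjusted P = 0.325). Hsc70-5 passed it without detrending (0.0343), with ties in the cosines broken by time order (0.0153) and without CT33, CT36 or CT51 (lowest 0.0141), and Hsp60A passed it without CT33 (0.0447).

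Hsp83, Hsc70-4 and Hsf at 25°C had adjusted P-values of 1, 0.807 and 1. Hop and Hsc70Cb each had 0.266, and DnaJ-1 0.325. At 28°C every tested member other than Trap1 had 0.680 or more, and Hsp68 was not tested there.

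Across the 20 libraries at 25°C, detrended profiles of the mitochondrial members ran together. Pearson's r of log2(FPKM + 1), a description over libraries that share depth and scaling, was 0.96 between Hsc70-5 and Hsp60A, 0.95 between Trap1 and Hsp60A and 0.91 between Trap1 and Hsc70-5. Hsp83 and Hsc70-4 had r = 0.93. For Hsc70Cb and Hsf, detrended r was 0.85 but r without detrending was -0.54, since their slopes were opposite. Hsf ran against the mitochondrial members, with r = -0.86 for Trap1, -0.78 for Hsp60A and -0.67 for Hsc70-5 (-0.89, -0.87 and -0.80 without detrending). At 28°C the 3 mitochondrial pairs had r between 0.35 and 0.60, Hsp83 and Hsc70-4 had 0.69, and the highest of the 45 pairs was Hsc70-4 with Hsc70-5 at 0.78.

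**Figure D4:**
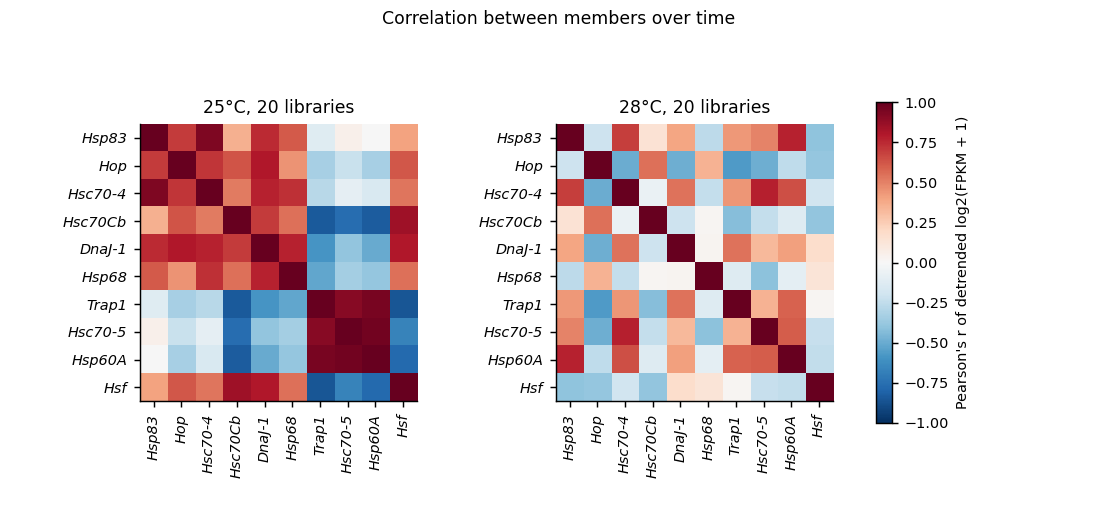
Pearson's r (colour, from -1 in blue to 1 in red) of detrended log2(FPKM + 1) over the 20 libraries of each course between every pair of the 10 chaperone genes, at 25°C on the left and 28°C on the right. At 25°C the block of Trap1, Hsc70-5 and Hsp60A reaches 0.91 to 0.96 and is blue against Hsf; at 28°C the same block reaches 0.35 to 0.60.

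Among the other 6932 expressed loci at 25°C, the 3 with the highest r to each member were read in the same way. For Hsp83 they were Hsc70-4 (0.93), CG8036 (0.91) and mRNA-cap (0.91), and for Hsc70-4 they were Hsp83, CG8036 (0.93) and Syx17 (0.88). For Hsp68 all 3 were small heat shock genes, Hsp27 (0.92), Hsp26 (0.90) and Hsp23 (0.87). UQCR-C1 came first both for Hsp60A (0.98) and for Hsc70-5 (0.97). SdhA (0.98) and Echs1 (0.97) followed for Hsp60A, Hsp60A itself (0.96) and Bcs1 (0.96) for Hsc70-5, and Trap1 had the joined locus CG1902,CG30338 (0.97), Mccc1 (0.97) and Nmdmc (0.97). For Hsf they were CenB1A (0.98), Vps50 (0.96) and RabX1 (0.96). Hop had Rpn5 (0.91), eIF3j (0.91) and Ntf-2 (0.89), Hsc70Cb had Rpn2 (0.94), SCAR (0.93) and the joined locus sktl,insc (0.93), and DnaJ-1 had CG11779 (0.90), CG12795 (0.89) and CG7220 (0.89).

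Other genes of these systems were read from lists of complexes and families. The CCT chaperonin, the cytosolic ring complex that folds actin and tubulin, had 8 of 8 subunits expressed at 25°C, and all 8 fell over the course, where 38.3% of all loci did, with a median slope of -0.32 log2 per 24 h against -0.01 over all loci. CCT1 fell by 0.36 ± 0.02 per 24 h (adjusted p = 3.47e-13) and CCT2 by 0.31 ± 0.01 (adjusted p = 1.90e-13). None of the 8 passed the threshold in the CT54 to CT66 comparison, where 7.33% of all loci were higher and 4.56% lower. Their slopes widen the error of that comparison, so this is no evidence that the interval did not differ. All 8 fell between the 5 libraries before that interval and the 5 within it, where 13.5% of all loci fell.

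Of 13 co-chaperones of Hsp90 and Hsp70, all expressed at 25°C, 10 fell over the course and 1 rose, beside 38.3% and 32.7% of all loci, with a median slope of -0.22. They included p23, which stabilises client-bound Hsp90 (550 FPKM, slope -0.29 ± 0.02, adjusted p = 1.96e-10), nudC (77.9 FPKM, -0.50 ± 0.04, adjusted p = 1.55e-10) and Fkbp59, an immunophilin (186 FPKM, -0.23 ± 0.02, adjusted p = 2.31e-09). Of 6 prefoldin subunits, which pass nascent proteins to CCT, 4 fell and none rose, with a median of -0.13. In the CT54 to CT66 comparison none of these 13 and 6 passed the threshold, beside 7.33% of all loci higher and 4.56% lower. The same limit holds there for the genes with a slope.

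Among 22 J-domain loci 21 were expressed at 25°C, of which 8 fell and 6 rose over the course, with a median slope of -0.03. These shares are near those of all loci, of which 38.3% fell and 32.7% rose. CG7130 rose (0.49 ± 0.05 per 24 h, adjusted p = 1.65e-08), and Droj2 fell (-0.25 ± 0.03, adjusted p = 1.78e-08). Of 4 nucleotide exchange factors, Roe1, the mitochondrial GrpE, fell (-0.35 ± 0.06, adjusted p = 1.69e-05), CG10973 fell (-0.23 ± 0.03, adjusted p = 8.09e-08), and stv, a BAG-domain partner of Hsp70, rose (0.42 ± 0.10, adjusted p = 0.000572). Like Hsf, stv was lower from CT54 to CT66 (-0.66 ± 0.18, adjusted p = 0.0289) and rose by 0.99 ± 0.12 on leaving it (adjusted p = 5.06e-06), at 1.19 to 4.30 FPKM.

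Hsc70-3, the Hsp70 of the endoplasmic reticulum also known as BiP, had 365 to 505 FPKM at 25°C. It was lower from CT54 to CT66 (-0.20 ± 0.04 log2, adjusted p = 0.00745) and had a JTK-Cycle adjusted P of 0.0202, with a slope that did not pass the threshold (-0.06 ± 0.03, adjusted p = 0.109). The co-chaperonin CG11267 (Hsp10), which caps the Hsp60 ring, had 194 to 426 FPKM. It fell over the course (-0.40 ± 0.06, adjusted p = 1.95e-06) and, like Hsp60A, fell on leaving the CT54 to CT66 interval (-0.49 ± 0.12, adjusted p = 0.00209), while its value within the interval did not pass the test (0.29 ± 0.14, adjusted p = 0.189).

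The heat-inducible genes named Hsp70 were low in these cells, unlike Hsp68. None of their 6 loci passed the expression filter at either temperature. At 25°C the highest was Hsp70Bb, with a mean of 1.56 FPKM and a range of 0.157 to 4.06, followed by Hsp70Bc with 0.971 FPKM. At 28°C their means did not exceed 0.718 FPKM, with single libraries up to 8.13 FPKM for Hsp70Bb, 7.23 for Hsp70Bbb and 6.38 for Hsp70Ba. Reads of these near-identical copies may have been split among them. The other Hsp60 genes, Hsp60B, Hsp60C and Hsp60D, had means of 0.0443, 0.00115 and 0.00541 FPKM at 25°C, and Hsc70-1 and Hsc70-2 of 0.0425 and 0.147. At 28°C none of the expressed loci of the lists passed the trend test, where 5.8% of all loci rose and 2.41% fell, or the CT54 to CT66 test, where no locus did. By JTK-Cycle, which called 4.37% of all loci, Csp was the 1 of 10 J-domain loci with a JTK-Cycle adjusted P under 0.05 (0.00246). Csp, the cysteine string protein of vesicles, also passed at 25°C (0.0264), as did P58IPK (0.0264) and shv (0.0343). These were 3 of 21 expressed J-domain loci. Of the 4 nucleotide exchange factors stv passed (0.0264), or 1 of 4. None of the 13 co-chaperones, 8 CCT subunits and 6 prefoldin subunits passed at 25°C, where 5.93% of all loci did.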

How the data were processed

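The authors aligned single-end reads to dm3 with TopHat, assembled loci with Cuffmerge and deposited 1 table of FPKM values per temperature, scaled by Cuffnorm; at 28°C alignments had been subsampled. Length and library size are thus already divided out, tables are comparable only within a course, and neighbouring genes can share a locus. The FPKM values come without an estimate of their counting error, so the fits did not weight for it. Depth was estimated from the value of 1 read at low loci, with transcript lengths of a current annotation of another build. The labels name another library kit than the methods.

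Gene names were matched to 98.3% of loci. The 10 members, and lists of further chaperones, were chosen with earlier results of these data known; CG5393 was dropped from a list after it matched another gene. All 10 members are named, with the 3 nearest profiles of each. Of the lists, some of the genes of smallest p are named, not always the very smallest, and some genes of low expression.

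Limma 3.58.1 in R 4.3.3 was fitted to log2(FPKM + 1) of expressed loci (0.9 FPKM or more in all libraries of a course), with Benjamini-Hochberg adjustment: a slope over 20 libraries, and CT54 to CT66 against 10 flanking libraries. Comparisons of consecutive groups of 5 libraries were added after the data were seen. JTK-Cycle was rewritten in Python 3.11.15 (numpy 2.4.6, two-sided null, Bonferroni over 24 references). Its null is exact only for values without ties, and the cosines hold ties, so its P-values are approximate. Time points have 1 library, so p-values measure scatter around the fit, and neighbouring libraries may not be independent. Fits were tested on simulated data. Alternatives were pseudocount, filter, scaling, detrending, other tests, shortened courses and leaving out each library. Coordinates are 1-based. No sequences are shown.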

Additional observations from a re-analysis of the deposited data

How the results depend on the processing

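Here each comparison is given by the number of members and of all expressed loci past the threshold. At 25°C the slope called 8 members, and 5 over the first 16 time points (Trap1, Hsc70-5, Hsp60A and Hsf lost, DnaJ-1 gained) or the last 16 (Trap1, Hsc70-4, Hsc70-5 and Hsp60A lost, Hsp68 gained). With the groups of 5 libraries as a term, 1623 loci had a slope against 4924. Over the first 16 time points Hsp68 had -0.21 log2 per 24 h, and with the groups as a term -0.090, against 0.20; DnaJ-1 had 0.027 over the last 16, against -0.11. The CT54 to CT66 comparison called 824 loci, and 2451 against all 15 other libraries with a line. At 28°C the slope of Hsc70-4 left 0 members past the threshold under a mean filter, a common sum, either shortened course and the groups as a term. All loci numbered 167, against 4 under the mean filter, 42 without filter, 12 and 5 over the first and last 16 time points and 0 with the groups as a term.

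A common sum turned the uncalled 28°C slopes of Hsp83 (-0.012), Hop (-0.15), Hsc70-5 (-0.065), Hsp60A (-0.066) and Hsf (-0.025). The first 16 time points turned those of Hsp83 (-0.0034) and Hsp60A (-0.053), and the last 16 those of Hsc70Cb (0.26) and Hsf (-0.089). The groups as a term turned Hsp83 (-0.61), Hsc70-4 (-0.054), DnaJ-1 (-1.61) and Hsp60A (-0.63). For CT69 to CT81 against CT54 to CT66 at 28°C, a mean filter or a common sum left 0 loci of 21, and median-of-ratios scaling gave Hsc70Cb -0.036. The common sum also changed the split of slopes, to 1448 up and 3556 down from 2268 and 2656 at 25°C (median slope -0.08 from -0.01) and to 12 up and 231 down from 118 and 49 at 28°C. It gave 269 up and 345 down, from 508 and 316, for CT54 to CT66 at 25°C, and 583 up and 1500 down, from 1053 and 934, for the step into it. Rhythm counts at 25°C went from 411 to 137 without detrending and to 882 by cosinor regression. At 28°C they were 0 members without detrending and 2 by cosinor regression (Hsc70-4 added), and 216 loci by cosinor regression, 169 under the mean filter and 145 with ties broken by time order, against 89.

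With 1 library left out, at 25°C the slope called 7 to 9 members and 4724 to 5012 loci, CT54 to CT66 4 to 6 members and 418 (without CT63) to 1319 loci (without CT39), and rhythm 1 to 4 members and 225 (without CT63) to 600 loci. At 28°C the slope called 0 to 1 member and 106 (without CT24) to 189 loci, CT54 to CT66 0 members and 0 to 45 loci (without CT81), CT69 to CT81 against the 5 before 0 to 4 members and 0 to 81 loci (without CT81), and rhythm 1 member and 61 to 115 loci. Slopes at 28°C ran from -0.067 to 0.044 for Hsc70Cb and from -0.013 to 0.38 for Hsf. The CT54 to CT66 difference of DnaJ-1 at 28°C ran from -0.55 to 0.023, and that of Hsc70Cb for CT69 to CT81 from -0.11 to 0.15. The causes were not tested. No paired analysis was possible because the labels give no replicate numbers and the courses, which share their time points, were scaled separately. At 28°C Trap1, Hsp68 and Hsf had libraries of about 1 to 3 reads.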
